A study of Homo sapiens with 4 samples.

Results

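The genes described here encode MHC class I molecules and the machinery that loads them with peptide. They are the heavy chain genes HLA-B (Entrez 3106), HLA-C (3107), HLA-E (3133) and HLA-F (3134) and the light chain gene B2M (567). With them stand the peptide transporter genes TAP1 (6890) and TAP2 (6891), the tapasin gene TAPBP (6892) and the transactivator gene NLRC5 (84166). These 9 genes were listed by name, with earlier results of these data known. Each was found by its Entrez identifier in all 4 gene tables, out of 17963 genes listed in any of them. RNA sequencing had been carried out on 4 libraries, 1 per group, of cells labelled HepG2, an established human line derived from a liver tumour. The library labelled JFK came from cells given a FLAG-tagged JFK plasmid, and its counterpart from cells given vector. JFK is another name for FBXO42, an F-box protein that brings substrates to a ubiquitin ligase. The ING5 siRNA library came from cells in which ING5, a subunit of histone acetyltransferase complexes, was targeted, and its counterpart from cells given a control siRNA.

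Each group is represented by 1 library, so differences have no replicate check and no test was possible. Folds are given with exact 95% Clopper-Pearson intervals computed from both counts, which cover counting error only. Depth was 7237325 counts in the library labelled JFK, 7179585 in vector, 9030075 in ING5 siRNA and 9196979 in control siRNA. ING5 had 81 counts in the ING5 siRNA library, against 144 in control siRNA. FBXO42 had 115 counts in the library labelled JFK, against 116 in vector, so this transcript was not higher in the library whose label names it. Of 14 hepatocyte markers, 10 had values and 1, the transcription factor gene HNF4A, reached 20 counts in each library, so the defining secreted-protein transcripts of the labelled cell type were near 0.

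MHC class I molecules display peptides from inside the cell to CD8 T cells, and nearly all nucleated cells carry them. A polymorphic heavy chain (HLA-B or HLA-C here) or a less variable one (HLA-E, read by NKG2A receptors, or HLA-F) pairs with beta-2 microglobulin, the product of B2M. Peptides cut by the proteasome enter the endoplasmic reticulum through the TAP1-TAP2 transporter, and tapasin bridges that transporter to the empty heavy chain. NLRC5 is the transactivator that binds, through RFX, CREB/ATF and NF-Y factors, the SXY module of class I promoters. Interferon response and kappa B elements lie in the same promoters. In hepatocytes and liver tumour cells class I levels are low to moderate at rest and are raised by interferon.

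The promoter stretches that carry these elements are shown because the members can be grouped by them. Windows came from a RefSeq table on GRCh38.p14, which is a later build than the GRCh37 named for the gene tables, and 7 of the 9 members had one. HLA-E and NLRC5 had none. Sequences run 5′ to 3′ on the gene's own strand. Capitals mark every match, on either strand, to the interferon response core TTTCNNTT, its longer form (the core followed by TC), kappa B, the CRE core TGACG of the X2 box, and the CCAAT box. The kappa B pattern was GGG, any 2 bases, T, any 2 bases and CC.
HLA-B: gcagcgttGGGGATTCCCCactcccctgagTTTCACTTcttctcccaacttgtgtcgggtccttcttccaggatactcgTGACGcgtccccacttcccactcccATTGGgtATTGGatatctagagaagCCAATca
HLA-C: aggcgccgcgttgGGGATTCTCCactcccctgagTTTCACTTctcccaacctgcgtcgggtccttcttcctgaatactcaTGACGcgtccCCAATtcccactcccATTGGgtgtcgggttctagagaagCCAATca
HLA-F: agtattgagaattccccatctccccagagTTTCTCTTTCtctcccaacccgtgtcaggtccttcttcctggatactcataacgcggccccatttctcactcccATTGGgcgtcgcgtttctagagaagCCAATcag
B2M: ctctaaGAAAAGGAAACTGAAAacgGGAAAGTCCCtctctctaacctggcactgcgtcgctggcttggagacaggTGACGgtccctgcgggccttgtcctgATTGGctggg
TAP1: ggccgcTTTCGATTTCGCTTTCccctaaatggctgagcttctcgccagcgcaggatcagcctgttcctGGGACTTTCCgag
TAP2: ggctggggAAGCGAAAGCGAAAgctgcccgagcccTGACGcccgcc
TAPBP: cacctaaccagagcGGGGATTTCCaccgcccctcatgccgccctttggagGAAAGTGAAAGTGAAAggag

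The HLA-B stretch is chr6:31357229-31357364 on the minus strand, from 185 to 50 bases upstream of the annotated start site. The others are chr6:31272142-31272277 (minus strand) for HLA-C, chr6:29723249-29723384 (plus strand) for HLA-F and chr15:44711367-44711477 (plus strand) for B2M. The TAP1 stretch is chr6:32853764-32853844, the TAP2 stretch chr6:32838764-32838809 and the TAPBP stretch chr6:33314079-33314148, all on the minus strand. The motifs were chosen after the promoter sequences were seen, so the shares that follow are a description and not an independent comparison. The interferon response core was found in 7 of the 7 member genes, against 22.8% of all 35116 promoter windows of 300 bases. Its longer form, which contains the core, was found in 5 of them (HLA-F, B2M, TAP1, TAP2 and TAPBP), against 3.57% of windows. HLA-B and HLA-C thus carry the core and not the longer form.

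Kappa B matches lay in 5 member genes (22.0% of all windows), and in HLA-B a pair of them overlapped at 177 and 176 bases upstream. HLA-F and TAP2 had none. The CRE core lay in HLA-B, HLA-C, B2M and TAP2 (24.6% of windows), and a CCAAT box in the 3 HLA genes, B2M and TAP1 (34.6%). Within the printed stretches of HLA-B and HLA-C the kappa B, interferon, CRE and CCAAT matches follow each other in the same order. A match describes these letters only and says nothing about binding in these cells.

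**Figure D1:**
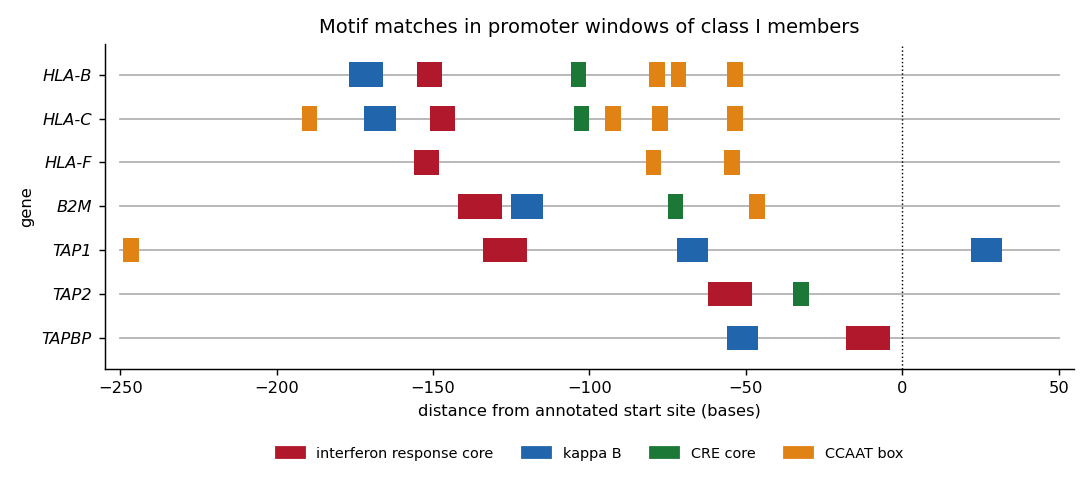
Motif matches in the promoter windows of the 7 members that had one, by distance from the annotated start site in bases; each coloured block is a match to 1 motif on either strand. In HLA-B and HLA-C the interferon response core lies 155 and 151 bases upstream, downstream of the kappa B match, and HLA-C has a further CCAAT box 192 bases upstream, while in TAPBP it lies 18 bases upstream of the start site. For TAP1 the window of the upstream start site is drawn.

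B2M was the most abundant member in every library. On the CPM scale (counts scaled by each library's total) it had 4348 in the library labelled JFK, 4690 in vector, 1755 in ING5 siRNA and 1725 in control siRNA. By the deposited length-scaled value it ranked 1 among all genes in both libraries of the vector pair, and 12 and 8 in ING5 siRNA and control siRNA. HLA-B followed with 3486 CPM in the library labelled JFK, 2980 in vector, 375 in ING5 siRNA and 289 in control siRNA. HLA-C stood at 2237, 2008, 213 and 202 CPM in the same order of libraries. Both classical heavy chains were thus among the most abundant transcripts of the vector pair, with HLA-B at rank 11 in each of its libraries, and far lower in the siRNA pair.

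HLA-E, the ligand of inhibitory receptors on natural killer cells, had 509 CPM in the library labelled JFK, 536 in vector, 111 in ING5 siRNA and 97.6 in control siRNA. HLA-F, largely kept inside the cell, had 85.7 and 73.4 CPM in the library labelled JFK and vector, and 3.54 and 3.04 in ING5 siRNA and control siRNA. In the siRNA pair HLA-F rests on 32 and 28 counts, so it is the only member measured on fewer than 100 counts. Compared per length within a library, the order in the library labelled JFK was B2M (4471 FPKM), HLA-B (2211), HLA-C (1411), HLA-E (188), TAP1 (120), HLA-F (62.2), TAPBP (55.5), TAP2 (29.5) and NLRC5 (11.6). In ING5 siRNA it was B2M (1763 RPKM), HLA-B (236), HLA-C (133), HLA-E (41.1), TAPBP (27.8), TAP1 (11.3), TAP2 (11.02), NLRC5 (5.93) and HLA-F (2.21). HLA-F and TAP1 thus stood lower in that order in the siRNA pair. TAP1 and TAP2, which make up 1 transporter, were close to each other there and apart in the vector pair.

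The transporter genes had 360 CPM (TAP1) and 100.4 CPM (TAP2) in the library labelled JFK, and 362 and 115 CPM in vector. In ING5 siRNA they had 33.9 and 63.1 CPM, and in control siRNA 28.4 and 52.7 CPM. Per length TAP1 stood at 4.07 times TAP2 in the library labelled JFK and 3.49 times in vector, but at 1.03 times in both siRNA libraries. The length used for TAP2 also differed, 3368 bases for the library labelled JFK and vector but 5679 for the siRNA libraries. TAPBP had 210.4 and 220 CPM in the library labelled JFK and vector, and 106 and 96.0 in ING5 siRNA and control siRNA. In bulk RNA, fewer cells that carry a transcript and less of it per cell cannot be told apart. NLRC5 was the scarcest member of the vector pair per length, with 79.3 and 88.3 CPM there and 40.3 and 30.2 CPM in ING5 siRNA and control siRNA.

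**Figure D2:**
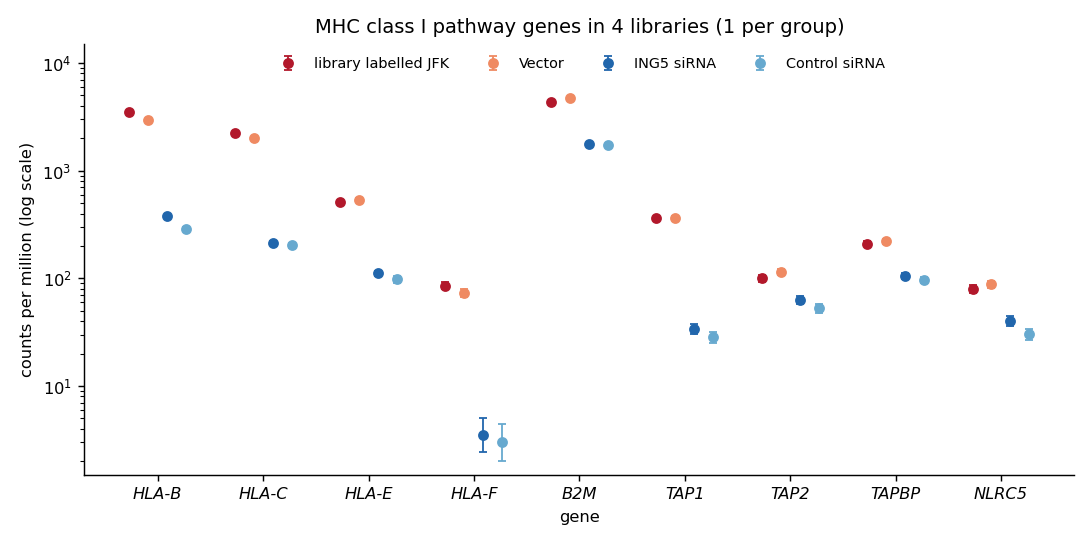
CPM (log scale) of the 9 members in the 4 libraries, 1 library per group; bars are exact 95% Poisson intervals and cover counting error only. Libraries of a pair lie close together, while the vector pair lies above the siRNA pair for every member, most of all for HLA-F (85.7 and 73.4 against 3.54 and 3.04).

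The first comparison asks whether class I transcripts differ between the library labelled JFK and vector. Most heavy chain transcripts stood modestly higher: HLA-B was 1.20-fold (interval 1.18 to 1.22), HLA-C 1.14-fold (1.12 to 1.17) and HLA-F 1.20-fold (1.06 to 1.35) the vector level. HLA-E did not share this, nor did the transporter, tapasin or NLRC5 genes. B2M and TAP2 stood slightly lower. None of the 9 members was 1.5-fold apart, where 1.5% of the 12107 measured genes (181) passed that size upward and 2.07% (251) downward; with total-count scaling these were 143 and 308. Measured genes are those whose normalised counts average 20 or more over the pair, and all 9 members passed. Of the 9 log2 folds 4 lay above 0, where 50.5% of measured genes did.

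HLA-B had 25232 counts in the library labelled JFK, against 21392 in vector, a log2 fold of 0.26. HLA-C had 16192 against 14419 (0.19), and HLA-F 620 against 527 (0.26). Summed over the 4 heavy chain members the counts were 45730 in the library labelled JFK, against 40183 in vector, a log2 fold of 0.21 (0.19 to 0.23). B2M had 31469 counts, against 33674 in vector (log2 fold −0.07, interval −0.10 to −0.05). The heavy chain sum and the light chain transcript therefore lay on opposite sides of 0. Per length, B2M stood at 1.15 times the summed heavy chains in the library labelled JFK and at 1.42 times in vector.

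TAP2 had 727 counts, against 827 in vector (−0.16, interval −0.31 to −0.02), and TAP1 had 2608, against 2599 (0.03, interval −0.05 to 0.11; −0.01 by FPKM). The pair of genes that make up the transporter did not separate from 0 together. HLA-E had 3686 counts, against 3845 in vector (−0.04, −0.10 to 0.03), TAPBP 1523 against 1579 (−0.03, −0.13 to 0.07) and NLRC5 574 against 634 (−0.12, −0.28 to 0.05). The intervals of these 3 genes include 0. Across the members 3 intervals lay wholly above 0 and 2 wholly below, where 14.3% and 11.2% of all measured genes did. With total-count scaling 3 lay wholly below, HLA-E (−0.07) being the third. The median of the 9 log2 folds was −0.03, beside 0.00 for all measured genes.

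Counting bears on the HLA genes in particular. In the vector pair the 7 members on chromosome 6 had fractional expected counts, such as a counter gives when it splits reads among similar genes, while B2M on chromosome 15 and NLRC5 on chromosome 16 had whole counts. HLA genes resemble each other and their pseudogenes, so the split between them is uncertain. The related HLA-G and the pseudogenes HLA-H, HLA-J and HLA-L also lay above 0 in the library labelled JFK, at 0.29, 0.33, 0.19 and 0.11. The intervals of HLA-G (0.03 to 0.55) and HLA-H (0.23 to 0.42) exclude 0. Those of HLA-J (−0.28 to 0.65) and HLA-L (−0.06 to 0.27) include it. Adding these 4 to the heavy chain members left the summed log2 fold at 0.21 (0.20 to 0.23). All 4088 measured genes with fractional counts had a median log2 fold of −0.04.

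**Figure D3:**
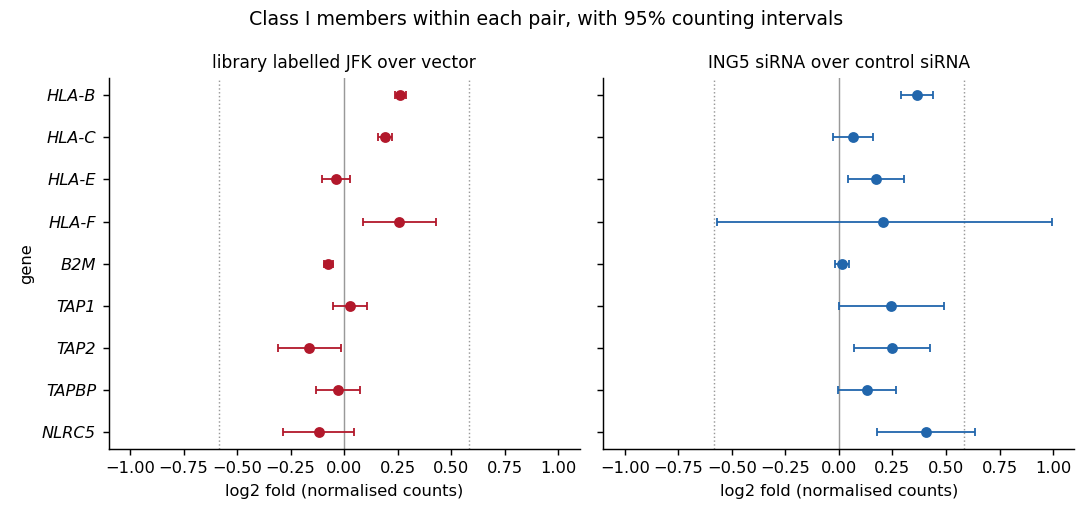
Log2 fold of normalised counts for each member, in the library labelled JFK over vector (left) and in ING5 siRNA over control siRNA (right); bars are 95% Clopper-Pearson intervals of the count ratio and dotted lines mark 1.5-fold. On the left HLA-B, HLA-C and HLA-F lie above 0 and B2M and TAP2 below it, while on the right all 9 points lie above 0, from 0.01 for B2M to 0.40 for NLRC5.

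The ING5 siRNA comparison asks whether class I transcripts depend on ING5. Members of most roles stood slightly higher: the transactivator gene NLRC5 was 1.32-fold (1.13 to 1.55), HLA-B 1.29-fold (1.22 to 1.36) and TAP1 and TAP2 both 1.19-fold the control siRNA level. B2M was level, at 1.01-fold (0.988 to 1.03). All 9 members lay above 0, 8 with median-of-ratios scaling, where 48.6% of 11634 measured genes did. None was 1.5-fold apart, a size reached by 4.01% of measured genes upward and 4.4% downward.

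NLRC5 had 364 counts in ING5 siRNA, against 278 in control siRNA, a log2 fold of 0.40 (0.18 to 0.64). HLA-B had 3389 against 2660 (0.37, 0.29 to 0.44). HLA-E had 1002 against 898 (0.17, 0.04 to 0.31). These are the transactivator and a pair of heavy chains, and their intervals exclude 0. HLA-C had 1922 counts, against 1857 in control siRNA (0.07, interval −0.03 to 0.16), and HLA-F 32 against 28 (0.21, −0.57 to 0.99). The heavy chains therefore did not separate from 0 as a block, and for HLA-F a 1.5-fold difference either way was not detectable at this depth.

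The transporter genes had like values, TAP1 with 306 counts against 261 (0.25, 0.00 to 0.49) and TAP2 with 570 against 485 (0.25, 0.07 to 0.43). TAPBP had 956 counts in ING5 siRNA, against 883 in control siRNA (0.13, −0.00 to 0.26), and B2M 15847 against 15869 (0.01, −0.02 to 0.05). In all, 5 of 9 intervals lay wholly above 0 and 0 below, where 18.3% and 20.6% of all measured genes did; scaling moved the 5 between 4 and 6, since the TAP1 and TAPBP bounds touch 0. The median of the members was 0.21, beside −0.01 for all measured genes. The summed heavy chains stood at 6345 counts in ING5 siRNA, against 5443 in control siRNA (0.24, 0.18 to 0.29).

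HLA-B took a larger part of the heavy chain reads in the library labelled JFK than in vector, and in ING5 siRNA than in control siRNA. Its share of the reads of HLA-B, HLA-C, HLA-E and HLA-F was 55.2% (exact 95% binomial interval 54.7 to 55.6) in the library labelled JFK, against 53.2% (52.7 to 53.7) in vector. It was 53.4% (52.2 to 54.6) in ING5 siRNA, against 48.9% (47.5 to 50.2) in control siRNA. HLA-E lay the other way within the vector pair, with 8.06% (7.81 to 8.31) in the library labelled JFK, against 9.57% (9.28 to 9.86) in vector. In the siRNA pair its share was 15.8% (14.9 to 16.7), against 16.5% (15.5 to 17.5) in control siRNA, with overlapping intervals. HLA-C held 30.3% (29.2 to 31.4) in ING5 siRNA, against 34.1% (32.9 to 35.4) in control siRNA. Shares of reads weigh longer transcripts more: per length HLA-E held 4.87% in the library labelled JFK, against 5.82% in vector, and 9.96% in ING5 siRNA, against 10.4% in control siRNA.

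The pairs have separate controls, so their values can be set side by side. HLA-B, HLA-C, HLA-F and TAP1 lay above 0 in both, and the other 5 members lay below 0 in the library labelled JFK and above 0 in ING5 siRNA. Of 8338 other genes with a mean of at least 100 in both pairs, 22.8% (1905) lay above 0 in both. A further 1910 of them lay below 0 in the library labelled JFK and above 0 in ING5 siRNA. HLA-B was the only member whose interval lay wholly above 0 in both pairs. NLRC5, the member farthest above 0 in ING5 siRNA, lay at −0.12 in the library labelled JFK. For B2M and TAP1 one of these signs turns with scaling.

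**Figure D4:**
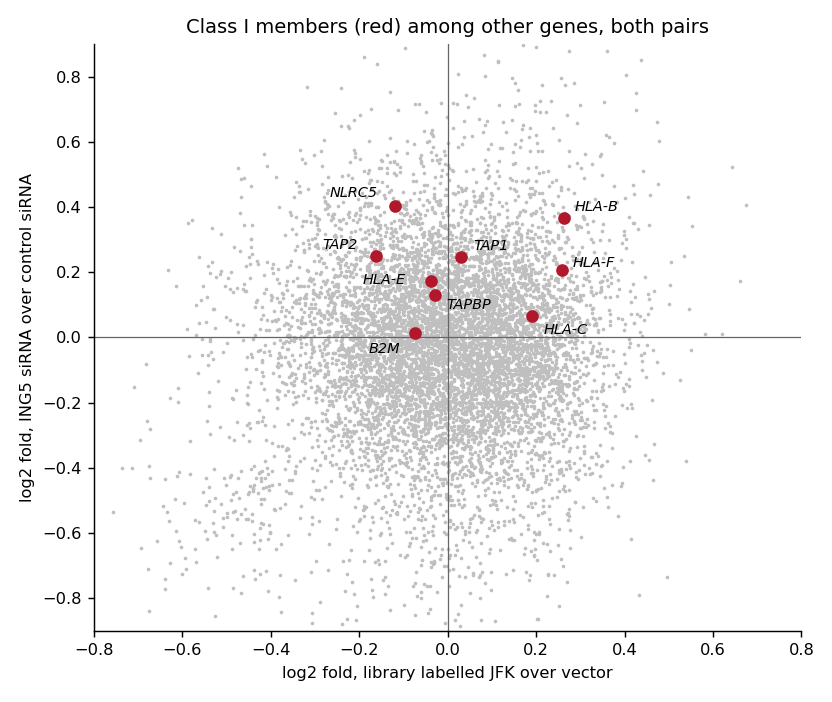
Log2 fold in ING5 siRNA over control siRNA (vertical) against log2 fold in the library labelled JFK over vector (horizontal), both from normalised counts; red points are the 9 members and grey points other genes with a mean of at least 100 in both pairs, of which 72 lie outside the axes. Members lie at or above the horizontal line, with HLA-B at 0.26 and 0.37 farthest to the upper right.

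Genes that cut peptides for class I molecules were read next. Of 14 measured in the vector pair, 0 were 1.5-fold apart (median −0.03). In ING5 siRNA 0 of 14 were as well (median 0.08), but the trimming aminopeptidase genes LNPEP and ERAP1 stood highest and a further one, ERAP2, lowest: LNPEP had 139 counts in ING5 siRNA, against 96 in control siRNA (0.55, 0.16 to 0.94), and ERAP1 235 against 166 (0.52, 0.22 to 0.81). ERAP2 had 34 counts in ING5 siRNA, against 42 in control siRNA (−0.29, −0.99 to 0.40). ERAP1 trims peptides in the endoplasmic reticulum to class I length. THOP1, a cytosolic peptidase gene that destroys such peptides, had 607 against 727 (−0.24, −0.40 to −0.09). In the library labelled JFK THOP1 lay at 0.19 and the leucine aminopeptidase gene LAP3 at −0.36, with 327 counts against 427 in vector.

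The peptide loading complex and quality control list covers chaperones of the endoplasmic reticulum and the SEC61 channel, through which heavy chains enter it. Of 12 measured in the library labelled JFK 0 were 1.5-fold apart (median 0.13), with the glucosidase II gene GANAB at 0.22. In ING5 siRNA the median of 11 was −0.02. SEC61A1, the channel's pore subunit gene, had 2065 counts in ING5 siRNA, against 3072 in control siRNA (−0.56, −0.64 to −0.48), and SEC61B 165 against 241 (−0.53). PDIA3, the disulphide isomerase gene of the loading complex, lay at −0.24 and the chaperone gene HSPA5 at 0.26. SEC61A1 and SEC61B were thus lower while the members lay above 0.

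Factors that act at class I promoters differed between members of the list. In the library labelled JFK the interferon-signalling genes STAT2 and IRF9 stood among the lowest: STAT2 had 244 counts, against 341 in vector (−0.46, −0.70 to −0.22), and IRF9 363 against 486 (−0.40, −0.60 to −0.20). RELA, the activating NF-kB subunit gene, was highest there (0.27, 0.13 to 0.42), followed by RFXANK (0.23), which encodes an RFX subunit. The list median was −0.11 with 0 of 17 measured genes 1.5-fold apart. In ING5 siRNA RFXANK (0.26, −0.02 to 0.55) and RFX5 (0.22, 0.09 to 0.34), both of RFX subunits, were among the highest, and the lowest were RFXAP (−0.30), the NF-Y subunit gene NFYC (−0.29) and ATF1 (−0.25). The median was −0.07 and again 0 of 17 were 1.5-fold apart.

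Interferon receptor and signalling genes had a median of −0.11 in the library labelled JFK. Of 9 measured, 1 was at least 1.5-fold lower, as were 2.07% of all measured genes. That gene was USP18, a feedback inhibitor of interferon signalling, with 377 counts against 613 in vector (−0.68). In ING5 siRNA the median was 0.01, with the feedback gene SOCS3 at 0.48, the kinase gene JAK2 at 0.44, the receptor gene IFNAR2 at 0.38 and USP18 at −0.39. Genes that repress class I or send it to degradation had medians of 0.02 in the library labelled JFK and −0.11 in ING5 siRNA. In ING5 siRNA 1 of 12 passed 1.5-fold each way, where 4.01% of all measured genes did upward and 4.4% downward. MARCHF9, a ubiquitin ligase gene of the family that removes surface molecules, had 92 counts in ING5 siRNA, against 46 in control siRNA (1.01, 0.49 to 1.56). SUSD6, whose product takes part in class I degradation, had 143 against 221 (−0.61, −0.93 to −0.30).

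Class I-like molecules include the stress ligands of the activating receptor NKG2D. In ING5 siRNA MICB had 702 counts, against 419 in control siRNA (0.76, 0.58 to 0.94), and MICA 705 against 524 (0.44, 0.28 to 0.61). ULBP2 had 53 against 22 (1.27, 0.54 to 2.07). MICB and ULBP2 were the 2 of 9 measured genes that passed 1.5-fold upward, as did 4.01% of all measured genes. The iron regulator gene HFE was lowest (−0.35, −0.57 to −0.12). In the library labelled JFK all 8 measured genes lay above 0 (median 0.16), where 50.5% of all measured genes did. Of the 8, 1 was at least 1.5-fold higher, as were 1.5% of all measured genes. That gene was PROCR, for the endothelial protein C receptor, with 101 counts against 62 (0.72, 0.26 to 1.21). MICA and MICB, and ULBP2 and its relatives, are similar in sequence, so reads may be divided between them.

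**Figure D5:**
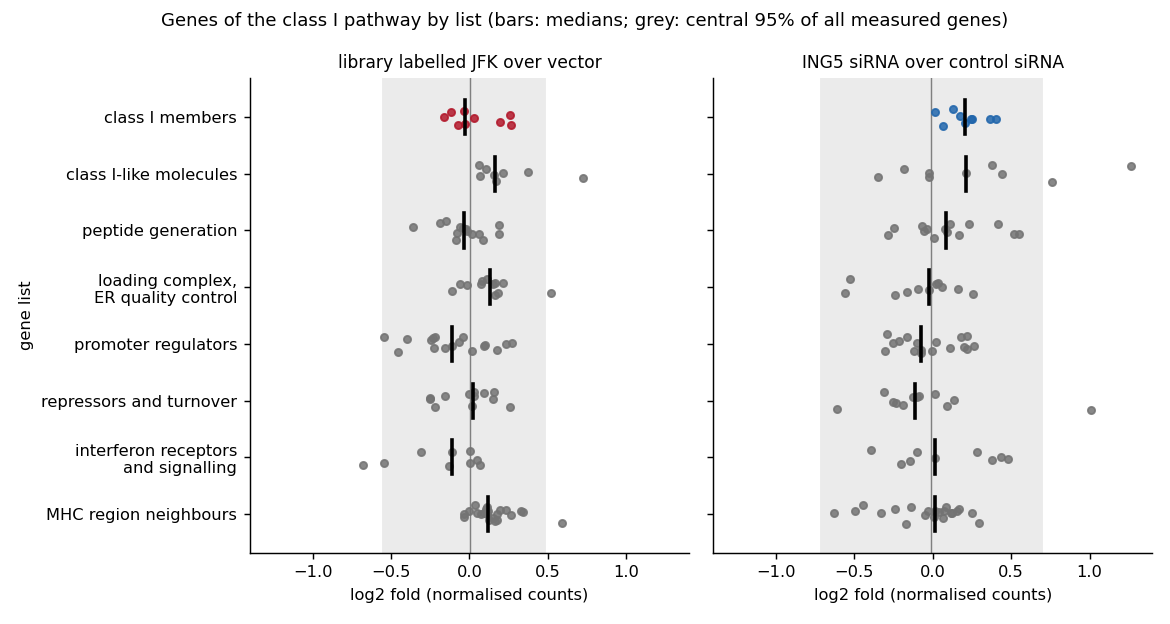
Log2 fold of normalised counts for the class I members (coloured) and the measured genes of 7 related lists (grey points), in the library labelled JFK over vector (left) and ING5 siRNA over control siRNA (right); black bars are list medians and the grey band holds the central 95% of all measured genes. The members' median is −0.03 on the left and 0.21 on the right, and ULBP2 (1.27), MARCHF9 (1.01) and MICB (0.76) lie outside the band on the right.

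Genes that lie in the MHC region of chromosome 6 but belong to other pathways gave a comparison of position. In the library labelled JFK 22 were measured, with a median log2 fold of 0.12, beside 0.03 for the 7 members on that chromosome. Of the 22 neighbours 19 lay above 0, where 50.5% of all measured genes did. Their intervals lay wholly above 0 for 7 and wholly below for 0, where 14.3% and 11.2% of all measured genes did. In ING5 siRNA 21 were measured, with a median of 0.01, beside 0.21 for the 7 members. In that pair 12 of the 21 lay above 0, where 48.6% of all measured genes did. Their intervals lay wholly above 0 for 4 and wholly below for 4, where 18.3% and 20.6% of all measured genes did. The ubiquitin ligase gene TRIM26 was the 1 that was at least 1.5-fold lower (−0.63), where 4.4% of all measured genes were. No test of these differences was possible.

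Levels differed far more between the pairs than within them, although the tables of each pair were made separately and no test was made across them. With control siRNA set over vector, all 9 members lay below 0, where 48% of 12012 measured genes did. Of the members, 8 were at least 2-fold lower, where 17.5% of measured genes were; 9 were with RPKM over FPKM and 7 with median-of-ratios scaling. HLA-F was lowest (log2 fold −4.41), followed by TAP1 (−3.51), HLA-B (−3.20), HLA-C (−3.15) and HLA-E (−2.29). NLRC5 (−1.38), B2M (−1.28), TAPBP (−1.04) and TAP2 (−0.97) were nearer to 0. With RPKM over FPKM TAP2 lay at −1.89, farther from 0 than NLRC5 (−1.51), B2M (−1.47) and TAPBP (−1.20); the length given for TAP2 differs between the tables. Heavy chain reads made up 0.0592% of counts in control siRNA, against 0.560% in vector.

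Counts in the siRNA tables are all whole, while those of the vector tables need not be, so the treatment of shared reads may differ between the pairs. B2M and NLRC5, whose counts are whole in all 4 libraries, lay at −1.28 and −1.38 in control siRNA over vector. The 7 members with fractional counts in the vector pair ran from −0.97 (TAP2) to −4.41 (HLA-F). The part of shared reads in these levels was not tested. Among MHC region neighbours 4 of 22 were at least 2-fold lower, where 17.5% of all measured genes were, and the median was −0.17. The helicase gene DDX39B had 10 counts in control siRNA, against 2026 in vector. Immunoproteasome subunit gene PSMB9 had 35 counts in control siRNA, against 306 in vector (−3.31), and the interferon factor gene IRF9 149 against 486 (−1.90). Each was the lowest of its list, and the lists did not go one way. Of all measured genes 48% lay below 0. Of 14 peptide-cutting genes 10 lay below 0 and 4 above (median −0.81, highest 1.36). Of 17 promoter factors 10 lay below 0 and 7 above (median −0.06, highest 1.77).

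Markers of other cell types moved with the pairs too. Over 12 leukocyte genes, 7 of which had values, summed levels were 185 and 183 CPM in the library labelled JFK and vector, and 51.3 and 62.4 in ING5 siRNA and control siRNA. CD68 and LYZ, which epithelial cells can also express, made up most of this, and the pan-leukocyte gene PTPRC had 7, 8, 1 and 1 counts. Over 8 endothelial genes the sums were 164, 146, 12.6 and 26.7 CPM, mostly CDH5, and over 8 fibroblast genes 79.2, 76.3, 94.1 and 96.1 CPM. The endothelial genes KDR, TEK, TIE1 and CLDN5 had at most 3 counts in any library that lists them. Others of that list had more: in the same order of libraries PECAM1 had 41.3, 42.8, 21 and 16 counts and VWF 12, 5, 1 and 2. The part of other cells in the class I levels was not tested.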

How the data were processed

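Total RNA of HepG2 cells was extracted with Trizol for Illumina sequencing, per the labels, which also name each library's transfection. The submitters' processing notes list FastQC, fastp, STAR and DESeq2, and GRCh37 and hg19 as builds; the counter is not stated there, and no header names it. The vector pair holds deposited expected counts and deposited FPKM, and the siRNA pair deposited counts and deposited RPKM, per the file headers. Other columns are gene lengths in bases.

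Entrez identifiers were matched to symbols through a RefSeq table of a later build (16900 matched for JFK and vector, 16767 for the siRNA libraries). For the siRNA libraries 2 repeated identifiers were left out, and 1 gene with a blank count in the library labelled JFK was left out of that pair. Counts were scaled with TMM factors (trims 0.3 and 0.05), set to the average library size of each pair, and the log2 ratio was taken after adding 0.5 (Python 3.11.15, scipy 1.17.1, pandas 2.3.3, numpy 2.4.6, matplotlib 3.10.9). Expected counts were rounded for the intervals only. Genes averaging 20 or more normalised counts were kept, and 1.5-fold was the size called. No count model was fitted, since each group has 1 library. The method was tested on simulated data. PCR copies cannot be told from separate molecules here, so intervals cover counting error only.

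The members and the related gene lists were chosen with earlier results of these data known. Named genes are all members, the targeted genes, and up to 3 highest and 3 lowest measured genes of each related list in each pair; DDX39B, PSMB9 and IRF9 in the comparison across pairs, and the genes named from the marker lists, were chosen after their values were seen. Motifs were also chosen after the promoter sequences were seen. Some genes of the lists are not reported here. Alternatives were other scaling (median-of-ratios, total count, upper quartile), FPKM or RPKM with 0.1 added, 5 added, other filters, genes left out whose count and length-scaled value disagree, whole counts only, and TMM factors computed without the listed genes; other settings across pairs were added after seeing the data.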

Additional observations from a re-analysis of the deposited data

How the results depend on the processing

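In the vector pair the members' median log2 fold ran from −0.10 (whole counts only, which leaves B2M and NLRC5) to −0.03, and in the siRNA pair from 0.18 (5 added) to 0.22 (upper quartile scaling). No member reached 1.5-fold in either pair under any setting run. HLA-B ran from 0.22 to 0.26 in the library labelled JFK and from 0.35 to 0.38 in ING5 siRNA. Signs near 0 turned for TAP1 in the library labelled JFK (−0.01 by FPKM) and for B2M in ING5 siRNA (−0.00 with median-of-ratios scaling). Over all genes, those at least 1.5-fold higher and lower were 22 and 60 in the vector pair at a mean of at least 100, 109 and 90 with whole counts only and 1571 and 1846 with no filter, against 181 and 251 as reported. In the siRNA pair they were 168 and 293 at a mean of at least 100 and 2263 and 2113 with no filter, against 466 and 512. Across the pairs the members' median was −2.29, −2.46 with total-count scaling and −2.45 with RPKM over FPKM. HLA-F in the siRNA pair is limited by depth, with 32 and 28 counts. Medians of related lists near 0 turned sign in places, such as the class I-like genes in ING5 siRNA, at −0.02 with a mean of at least 100. Per length, the heavy chain shares in the library labelled JFK, vector, ING5 siRNA and control siRNA were 57.1%, 55.4%, 57.2% and 52.5% for HLA-B, 36.4%, 37.2%, 32.3% and 36.5% for HLA-C, and 4.87%, 5.82%, 9.96% and 10.4% for HLA-E. HLA-F held 1.61% and 1.56% in the library labelled JFK and vector. Within each pair the order of the HLA-B, HLA-C and HLA-E shares was as it was for reads. No paired analysis was possible because each group has 1 library, and none could be left out.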

Other observations

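MHC class II transcripts that had values were scarce. HLA-DRB1, HLA-DPB1 and HLA-DQA1 had no values in any library, so their levels are not known. Of 11 class II and related genes sought, 1 was measured, HLA-DMA, which encodes a chain of the class II peptide exchanger, with 21 counts in the library labelled JFK, 26 in vector, 22 in ING5 siRNA and 30 in control siRNA. In the same order of libraries HLA-DOB, below the filter, had 5, 12, 20 and 13 counts. The invariant chain gene CD74 had 1, 2, 0 and 1 counts, and the class II transactivator gene CIITA 8.18, 8.83, 0 and 2.

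Measured by Euclidean distance over the 2 log2 folds, the genes nearest to the members' medians (−0.03 in the library labelled JFK and 0.21 in ING5 siRNA) were RABEP1, SHLD2, PTPRS, RAB11FIP1 and TOMM70, all within 0.00787. Of the 8338 genes compared, 552 (6.62%) lay within 0.1 of those medians. The medians are a middle point and not a pattern that most members have: HLA-B lay at 0.26 for the library labelled JFK and 0.37 for ING5 siRNA, and NLRC5 at −0.12 and 0.40.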
